A study of Mus musculus with 18 samples.

Results

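A set of 7 genes encoding the scaffold and cross-linking proteins of the sarcomere were followed in C2C12 myotubes infected with 1 of 3 lentiviral shRNAs. They are the myomesins Myom1, Myom2 and Myom3, the myosin-binding proteins C Mybpc1 and Mybpc2, titin (Ttn) and nebulin (Neb). They were picked by symbol, with earlier results of these data known. Each is read by 1 probe set that carries no other symbol. The 7 members are thus 7 of the 22180 genes with a single symbol on the array. C2C12 is a mouse myoblast line that fuses into myotubes after serum is withdrawn. Per the labels, growth medium held 20% fetal bovine serum, differentiation was started in 2% horse serum, virus was added 36 h after that start and RNA was taken 48 h after infection. The 18 one-colour arrays form 3 groups of 6, which received an shRNA to Nup210 (a membrane glycoprotein of the nuclear pore), to Mef2c (a transcription factor of the muscle programme) or, as control, a scrambled sequence. Hairpin sequences were not part of the material used. All groups share the cell line, the differentiation schedule and the lentiviral infection, so the controls are infected cells too, and infection came after differentiation had begun. Whether the 6 arrays of a group stand for separate cultures is not stated, so each p-value reflects only the spread among these arrays, and that spread may be technical.

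In the sarcomere, myosin thick filaments are held in register at the M-line, where myomesins bind both myosin and the end of titin. Titin is a single giant chain that runs from the Z-disc to the M-line, and nebulin lies along the thin filament, where it helps set filament length. Myosin-binding protein C decorates part of the thick filament and tunes cross-bridge cycling; Mybpc1 is the slow skeletal form and Mybpc2 the fast skeletal form. Myom1 is found in all striated muscle, Myom2 encodes M-protein, typical of fast fibres and heart, and Myom3 marks a subset of skeletal fibres.

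The windows around annotated transcription starts of the members that changed, and of Ttn, are shown so that members which fell with one shRNA, with the other or with neither can be read side by side. RefSeq promoter windows of build GRCm38.p6, 250 bases before to 50 bases after a start, were held for 5 of the 7 members, and Myom2 and Neb had none in the table used here. Capitals mark matches, on either strand, to the E-box CANNTG, to the MEF2 and CArG box consensus sequences and to the MEF3 core TCAGGTT, motifs that were chosen after the sequences had been read. The Myom1 window lies around a start inside the annotated gene, downstream of its outermost start.
Myom1 (GRCm38.p6, chr17:71019307-71019606, plus strand): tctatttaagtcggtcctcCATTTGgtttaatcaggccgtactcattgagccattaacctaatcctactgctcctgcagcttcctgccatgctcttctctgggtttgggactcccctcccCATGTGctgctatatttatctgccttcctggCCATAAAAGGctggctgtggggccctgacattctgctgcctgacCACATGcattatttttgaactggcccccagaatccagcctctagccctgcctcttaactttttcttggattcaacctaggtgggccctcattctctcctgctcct
Myom3 (GRCm38.p6, chr4:135759465-135759764, plus strand): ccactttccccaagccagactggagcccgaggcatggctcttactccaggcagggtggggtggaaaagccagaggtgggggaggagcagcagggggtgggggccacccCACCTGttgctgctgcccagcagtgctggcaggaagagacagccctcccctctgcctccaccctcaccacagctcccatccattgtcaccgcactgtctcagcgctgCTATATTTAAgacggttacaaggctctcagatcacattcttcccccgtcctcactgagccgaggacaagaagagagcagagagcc
Mybpc1 (GRCm38.p6, chr10:88605103-88605402, minus strand): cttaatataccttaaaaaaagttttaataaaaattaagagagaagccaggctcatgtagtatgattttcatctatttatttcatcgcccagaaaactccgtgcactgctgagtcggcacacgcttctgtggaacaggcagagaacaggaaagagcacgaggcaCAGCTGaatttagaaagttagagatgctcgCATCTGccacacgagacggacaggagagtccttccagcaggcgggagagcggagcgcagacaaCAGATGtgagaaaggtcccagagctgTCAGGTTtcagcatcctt
Mybpc2 (GRCm38.p6, chr7:44524620-44524919, minus strand): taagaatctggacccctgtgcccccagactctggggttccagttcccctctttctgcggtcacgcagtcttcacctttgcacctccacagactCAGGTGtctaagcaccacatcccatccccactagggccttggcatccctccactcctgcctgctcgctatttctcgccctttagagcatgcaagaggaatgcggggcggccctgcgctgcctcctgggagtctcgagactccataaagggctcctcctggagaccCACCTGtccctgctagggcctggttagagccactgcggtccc
Ttn (GRCm38.p6, chr2:76982498-76982797, minus strand): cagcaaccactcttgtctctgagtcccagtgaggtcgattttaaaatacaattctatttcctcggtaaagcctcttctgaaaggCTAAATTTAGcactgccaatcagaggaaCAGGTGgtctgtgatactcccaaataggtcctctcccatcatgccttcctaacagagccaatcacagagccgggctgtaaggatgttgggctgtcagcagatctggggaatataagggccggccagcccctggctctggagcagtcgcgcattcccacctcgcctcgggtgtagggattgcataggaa
The Myom3 window held 1 MEF2 match, CTATATTTAA, at position -35 from the start, and the Ttn window held CTAAATTTAG at position -166. The windows of Myom1, Mybpc1 and Mybpc2 had no match to these MEF2 letters. A match occurs in 3.19% of all 32851 windows of the same length. The Myom1 window held the CArG box CCATAAAAGG at position -99, and 1.63% of all windows have such a match. The MEF3 core stood at position 33 of the Mybpc1 window and in 4.07% of all windows. E-boxes were present in each of the 5 windows, from 1 in Myom3 and Ttn to 3 in Myom1 and Mybpc1, and in 72.3% of all windows. These are letter matches, not measured binding sites.

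Values are log2 expression per probe set. As a guide to background, the 95th percentile over 1394 odorant and pheromone receptor genes, which muscle cells hardly use, was 5.47. Array medians over all probe sets ran from 5.48 to 5.57, and the arrays of a group correlated at 0.991 to 0.995 across genes. Mef2c ran from 7.51 to 8.08 in the Mef2c shRNA arrays against 10.10 to 10.54 in controls. Nup210 ran from 5.54 to 5.79 in the Nup210 shRNA arrays against 5.57 to 5.81 in controls, close to background, and the groups overlapped (limma adjusted p = 0.402). The Nup210 shRNA arrays are therefore named by their label. All 8 myotube markers were above background, and their mean level was 12.10 to 12.15 in controls, 12.005 to 12.07 with Nup210 shRNA and 11.96 to 12.07 with Mef2c shRNA. Of 4 immune and 5 adipocyte markers, 1 each was above background. Of 6 cardiomyocyte markers 4 were, with Myh6 and Myl7 below it. In bulk RNA, fewer cells of a type and less RNA per cell cannot be told apart.

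**Figure D1:**
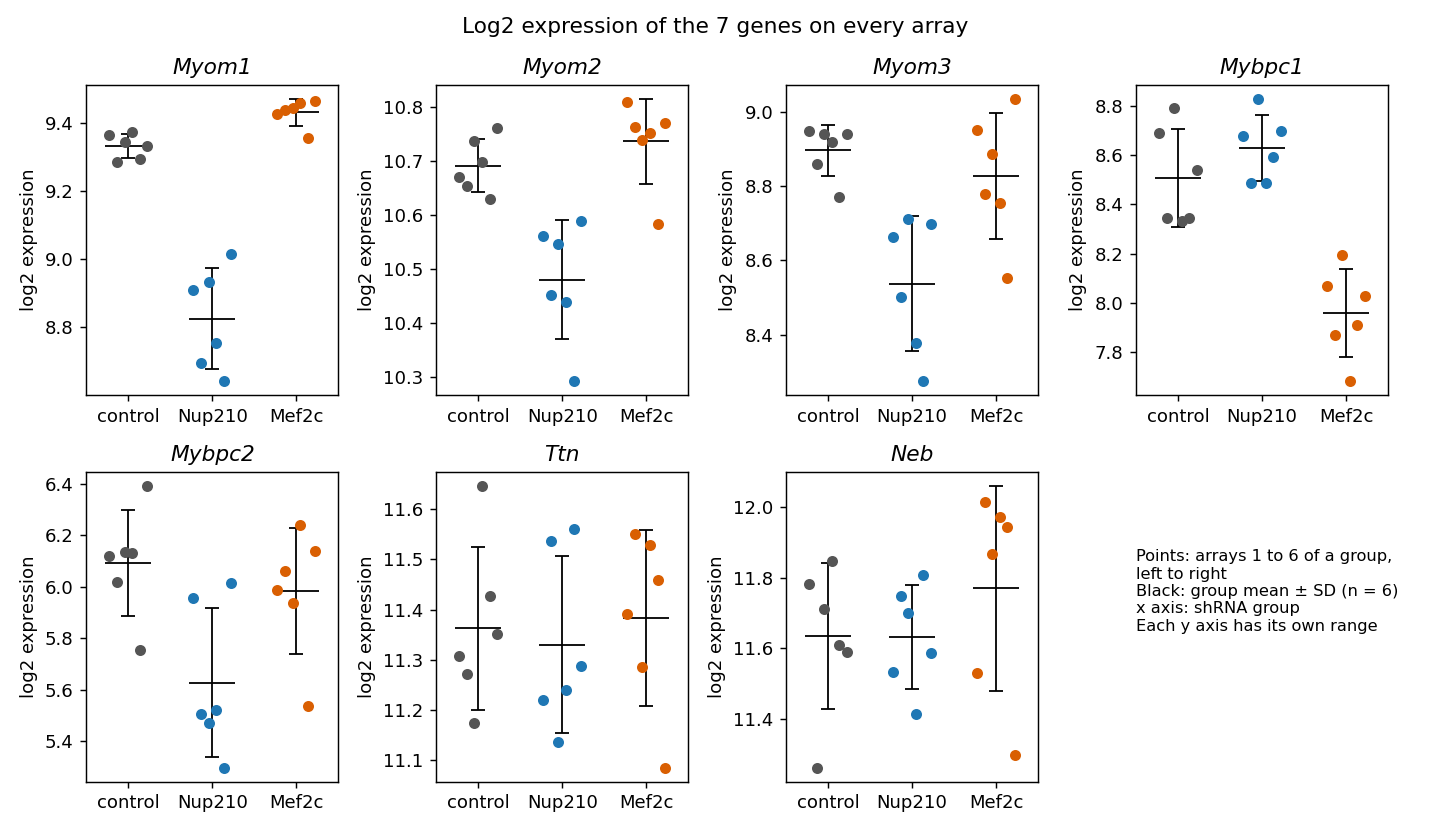
Log2 expression (y axis, a separate range per gene) of Myom1, Myom2, Myom3, Mybpc1, Mybpc2, Ttn and Neb on each of the 18 arrays by shRNA group (x axis); points are arrays 1 to 6 from left to right, and black bars give the group mean ± SD (n = 6). The Nup210 shRNA arrays lie below all control arrays for the 3 myomesins, and the Mef2c shRNA arrays lie below all control arrays for Mybpc1.

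With Nup210 shRNA the 3 myomesin genes and Mybpc2 fell, while Mybpc1, Ttn and Neb did not pass the test. A total of 4 of the 7 members fell and 0 rose at a limma adjusted p under 0.05, beside 5.11% of all genes lower, 3.05% higher and 8.16% in either direction. The median log2 difference of the 7 members was -0.21, against 0.015 over all genes. Because the members were chosen with earlier results of these data known, shares and medians in this and the other comparisons describe them. They do not test them. All 7 members were above background on average. With genes below background left out, 2362 of 13017 genes were called, and the same 4 members. The question behind this contrast, from the series title, is how Nup210 depletion alters expression in myotubes.

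Myom1, the myomesin common to all striated muscle, changed most by p. Its control arrays had a lowest value of 9.28, a median of 9.34 and a highest of 9.37, and its Nup210 shRNA arrays 8.64, 8.83 and 9.01. The groups did not overlap and were 0.27 apart at the nearest arrays. Myom1 stood at 70.4% of control (log2 difference -0.51 ± 0.055 SE, adjusted p = 1.4e-05, 95% interval 64.9% to 76.3%), and by p it ranked 53 of the 22180 genes. 

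Myom3, the fibre-subset myomesin, ran from 8.77 through a median of 8.93 to 8.95 in controls and from 8.28 through 8.58 to 8.71 with Nup210 shRNA. Every Nup210 shRNA array was lower than the lowest control array, by 0.061 at the nearest. It stood at 78.0% of control (log2 difference -0.36 ± 0.084 SE, adjusted p = 0.0105).

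Myom2, the M-protein gene, shifted least of the 3 myomesins in its mean. Controls ran from 10.63 through 10.68 to 10.76 and Nup210 shRNA arrays from 10.29 through 10.50 to 10.59, again without overlap, with 0.040 between the nearest arrays. It stood at 86.4% of control (log2 difference -0.21 ± 0.052 SE, adjusted p = 0.0143). The 3 myomesins were the members whose groups did not overlap, and over all genes 5.63% did not overlap, 3.71% with every Nup210 shRNA array the lower.

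Mybpc2, the fast myosin-binding protein C, lay near background. Its control values were 5.76 at the lowest, 6.13 at the median and 6.39 at the highest, and its Nup210 shRNA values 5.30, 5.51 and 6.01. The groups overlapped, with 4 of 6 Nup210 shRNA arrays below the lowest control array, and 1 of these 6 arrays was below the receptor-gene background. It stood at 72.4% of control (log2 difference -0.47 ± 0.13 SE, adjusted p = 0.0382, 95% interval 59.6% to 88.1%). This call was lost without any 1 of Nup210 shRNA arrays 2, 3, 4 or 5 (adjusted p = 0.0807, 0.0751, 0.0796 and 0.0977) or of control arrays 1, 2, 3, 4 or 6 (0.0702, 0.0549, 0.0714, 0.0720 and 0.0936).

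Mybpc1, the slow myosin-binding protein C, ran from 8.48 through 8.63 to 8.83 with Nup210 shRNA and from 8.33 through 8.44 to 8.79 in controls. The groups overlapped, and the gene stood at 109% of control with a 95% interval of 94.7% to 125% (adjusted p = 0.538). Ttn ran from 11.17 through 11.33 to 11.65 in controls and from 11.13 through 11.26 to 11.56 with Nup210 shRNA, or 97.7% of control (interval 85.1% to 112%, adjusted p = 0.901). Neb ran from 11.26 through 11.66 to 11.85 in controls and from 11.41 through 11.64 to 11.81 with Nup210 shRNA, or 99.8% of control (interval 83.7% to 119%, adjusted p = 0.994). A fall of Ttn or Neb as large as that of Myom1, to 70.4%, lies outside both intervals.

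Within the Nup210 shRNA group the falls were not even. Arrays 2, 4 and 5 were the 3 lowest for each myomesin: for Myom1 they ran from 8.64 to 8.75 and the other 3 from 8.91 to 9.01, and for Myom3 from 8.28 to 8.50 against 8.66 to 8.71. These arrays also had the lowest of the 18 limma array weights, 0.724, 0.621 and 0.744. Without them Myom1 was still called lower (log2 difference -0.38, adjusted p = 0.000197), but Myom2 (-0.13, adjusted p = 0.272), Myom3 (-0.21, adjusted p = 0.265) and Mybpc2 (-0.28, adjusted p = 0.459) were not, leaving 1 member called where 2.54% of all genes were called. Without control arrays 4 and 6, where 4.97% of all genes were called, Myom1 alone was called again (-0.50, adjusted p = 0.000365), with Myom2 at -0.19 (adjusted p = 0.0824), Myom3 at -0.34 (adjusted p = 0.0580) and Mybpc2 at -0.38 (adjusted p = 0.185). Control array 4 was the highest control for Myom1 (9.37), and control array 6 for Myom2 (10.76) and Mybpc2 (6.39). Their array weights were 0.940 and 1.04, beside 0.996 for control array 5, and no label sets them apart. Both of these fits were added with results of the data known. As the Nup210 shRNA arrays left out were the 3 lowest for each myomesin, smaller falls without them were fixed by that choice. Leaving out control arrays 4 and 6 lowered the control means of the 3 myomesins and Mybpc2, so smaller falls were fixed there too. The smaller group also makes a call harder to reach, so the lost calls do not show that the falls are absent.

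**Figure D2:**
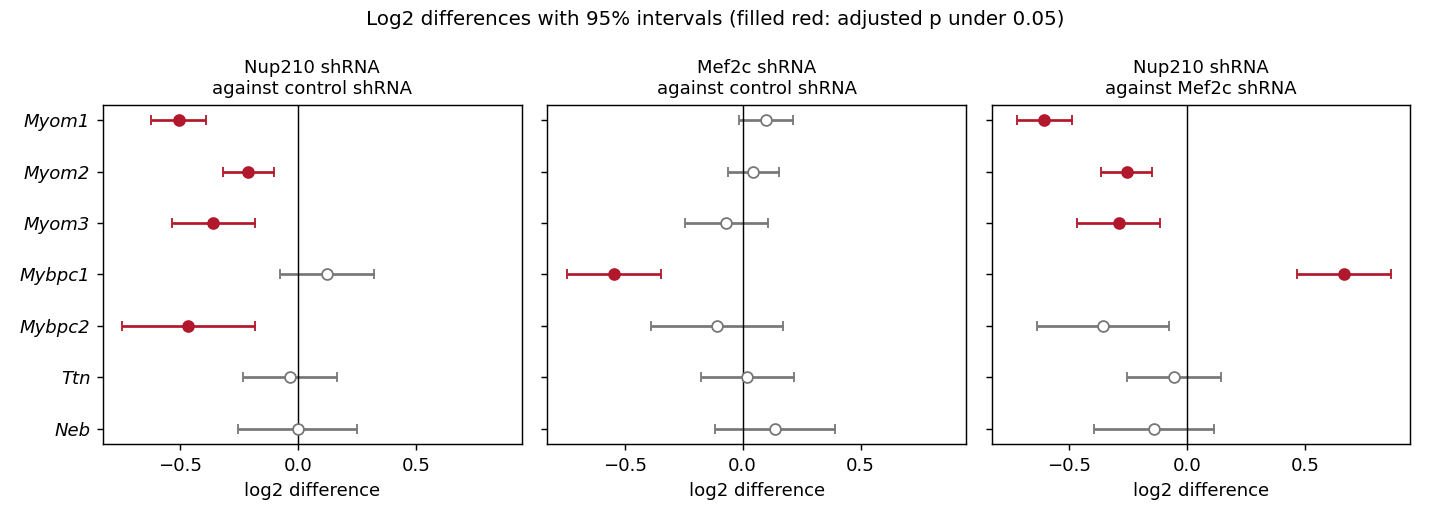
Log2 differences of the 7 genes (y axis) in the 3 comparisons (panels), on the x axis in log2 units, with 95% intervals from the limma fit of all 18 arrays; filled red points have an adjusted p under 0.05. Myom1 lies at -0.51 in the first panel and 0.10 in the second, and Mybpc1 at 0.12 and -0.55.

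With Mef2c shRNA the member that fell was Mybpc1, and no other member passed. In all 1 of the 7 members fell and 0 rose, beside 6.42% of all genes lower and 4.34% higher. The median over the 7 members was 0.021, and that over all genes 0.020. With genes below background left out, 3018 of 13017 genes were called, and Mybpc1 was again the only member.

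Mybpc1 had a lowest value of 7.68, a median of 7.97 and a highest of 8.20 in the Mef2c shRNA arrays, against 8.33, 8.44 and 8.79 in controls. The groups did not overlap and lay 0.14 apart at the nearest arrays, a pattern that 7.74% of all genes showed, 4.77% in this direction. The gene stood at 68.4% of control (log2 difference -0.55 ± 0.095 SE, adjusted p = 0.000769, 95% interval 59.6% to 78.6%). It was called in each of the 29 alternative fits, with adjusted p from 3.77e-06 to 0.00387.

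No myomesin passed the test. Myom1 ran from 9.36 through 9.44 to 9.46 with Mef2c shRNA, with 5 of 6 arrays above the highest control array. Its mean was 107% of control (log2 difference 0.099 ± 0.055 SE, adjusted p = 0.310, interval 98.8% to 116%). Myom2 ran from 10.58 through 10.76 to 10.81, or 103% of control (adjusted p = 0.676), and Myom3 from 8.55 through 8.83 to 9.04, or 95.3% (adjusted p = 0.688).

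The fast form Mybpc2 ran from 5.54 through 6.02 to 6.24, or 92.7% of control with an interval of 76.3% to 113% (adjusted p = 0.699). Ttn ran from 11.08 through 11.43 to 11.55, or 101% of control (interval 88.4% to 116%, adjusted p = 0.934). Neb ran from 11.30 through 11.91 to 12.01, with 4 of 6 arrays above the highest control array, or 110% of control (interval 92.2% to 131%, adjusted p = 0.567). Of 6 measured cycling-cell markers 5 fell in these arrays, with a mean level of 7.03 to 7.33 against 7.59 to 8.04 in controls, and their part in the member values was not tested.

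Set directly against each other, the shRNA groups differed in 4 members. Myom1, Myom2 and Myom3 were lower with Nup210 shRNA than with Mef2c shRNA, and Mybpc1 was higher; among all genes 6.93% were lower and 7.1% higher, or 14% in all. Mybpc1 stood at 159% of its Mef2c shRNA level (log2 difference 0.67 ± 0.095 SE, adjusted p = 7.04e-05), with the groups 0.29 apart at the nearest arrays. Myom1 stood at 65.7% (log2 difference -0.61 ± 0.055 SE, adjusted p = 6.03e-07), also without overlap. Myom1 and Mybpc1 were the 2 members whose groups did not overlap; over all genes 8.62% did not, and in 4.12% the Nup210 shRNA arrays were the lower.

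Myom2 stood at 83.7% of its Mef2c shRNA level (adjusted p = 0.00184) and Myom3 at 81.8% (adjusted p = 0.0251), both with overlapping arrays. The Myom3 difference was no longer called when Nup210 shRNA array 4 or 5 was dropped (adjusted p = 0.0606 and 0.0616), or Mef2c shRNA array 1, 3 or 6 (0.0599, 0.0520 and 0.0642). Mybpc2 stood at 78.1% and did not pass (adjusted p = 0.0929), but it did when Nup210 shRNA array 1 or 6 (0.0495 and 0.0364) or Mef2c shRNA array 5 (0.0244) was dropped. Ttn (96.3%, adjusted p = 0.814) and Neb (90.8%, adjusted p = 0.563) did not pass. Without Nup210 shRNA arrays 2, 4 and 5 the count was 2 members, Myom1 and Mybpc1, with Myom2 just short of the threshold (adjusted p = 0.05005).

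Ordered by group mean, Myom1 and Myom2 ran from Nup210 shRNA through control to Mef2c shRNA, and the step from control to Mef2c shRNA did not pass. Myom3 and Mybpc2 ran from Nup210 shRNA through Mef2c shRNA to control, and the step from Mef2c shRNA to control did not pass for either, nor did that from Nup210 to Mef2c shRNA for Mybpc2. Mybpc1 ran from Mef2c shRNA through control to Nup210 shRNA, and the step from control to Nup210 shRNA did not pass. For Ttn and Neb no step passed.

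Ratios formed within an array describe how paralogs diverged, and they carry no test here. The log2 ratio of Myom1 to Myom2, set to 0 at the control mean, ran from -0.069 to 0.053 in controls, from -0.40 to -0.21 with Nup210 shRNA and from -0.024 to 0.13 with Mef2c shRNA. Every Nup210 shRNA array was thus below every array of the other groups. Myom1 over Myom3 ran from -0.044 to 0.087 in controls and from -0.24 to -0.058 with Nup210 shRNA. With Mef2c shRNA it ran from -0.0046 to 0.37, so the Nup210 shRNA arrays were again the lowest. Myom1 fell most of the myomesins, and how often other gene pairs separate in this way was not counted. For Myom3 over Myom2 the ranges were -0.063 to 0.073, -0.27 to -0.042 and -0.24 to 0.059, and the groups overlapped. The ratio of slow Mybpc1 to fast Mybpc2 averaged 0.59 ± 0.28 (SD, n = 6) with Nup210 shRNA and -0.44 ± 0.34 with Mef2c shRNA. It ran from -0.27 to 0.24 in controls, from 0.27 to 0.94 with Nup210 shRNA and from -0.97 to -0.040 with Mef2c shRNA. The Nup210 shRNA arrays thus lay narrowly above all controls, while the Mef2c shRNA arrays overlapped them. Mybpc2 lay near background, with 5 of 6 arrays above it with Nup210 shRNA, some of them barely, and 6 with Mef2c shRNA. A dim gene thus carries part of this ratio. Ttn over Neb averaged -0.031 ± 0.14 and -0.12 ± 0.17 in the same groups, and its ranges of -0.29 to 0.098 and -0.31 to 0.13 overlapped the control range of -0.27 to 0.28.

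**Figure D3:**
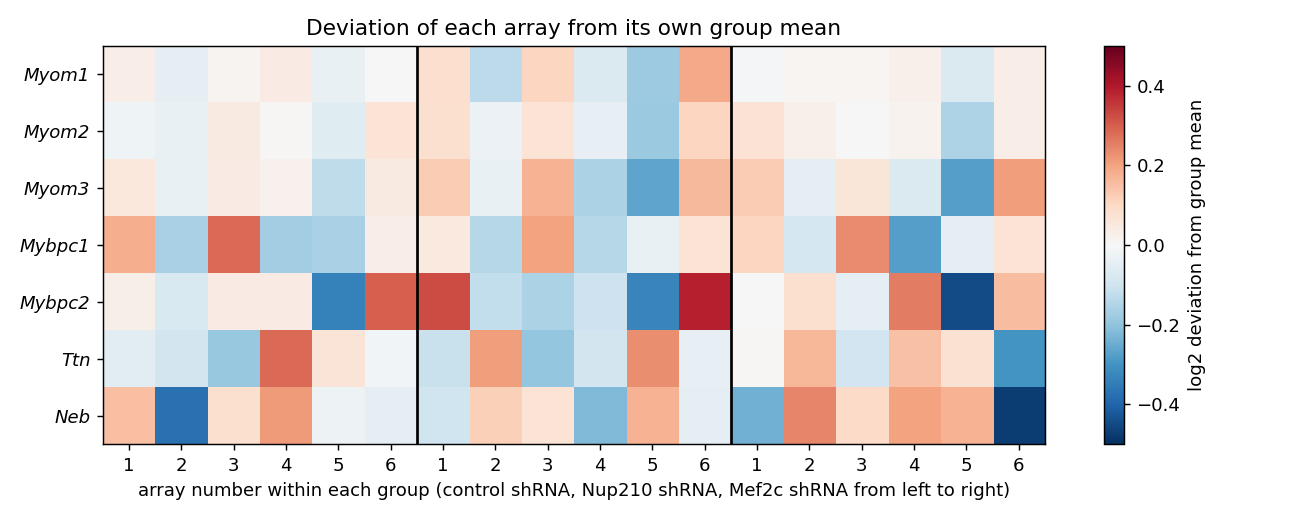
Deviation of each array (x axis, numbered within its group) from its own group mean, in log2 units by colour, for the 7 genes (y axis). Myom1, Myom2 and Myom3 are low together on arrays 2, 4 and 5 of the Nup210 shRNA group, while Ttn and Neb follow another pattern.

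Apart from the group differences, the members fell into sets that varied together from array to array. After each group mean was removed, Pearson r over the 18 arrays was 0.81 for Myom1 with Myom2, 0.78 for Myom1 with Myom3 and 0.88 for Myom2 with Myom3. Mybpc2 went with them, at 0.69, 0.82 and 0.67. Within single groups of 6 arrays the myomesin pairs ran from 0.47 for Myom1 with Myom2 in controls to 0.95 for Myom2 with Myom3 in Nup210 shRNA arrays.

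Ttn and Neb, the giant proteins, went with each other at 0.64 and not with the myomesins, for which r ran from -0.58 to -0.092, although Myom1 with Neb gave 0.88 in the 6 control arrays. Mybpc1 had r of 0.37 to 0.55 with the myomesins, 0.14 with Mybpc2 and -0.64 with Ttn. Points of a correlation share arrays and their normalization, so these are descriptions. Array numbers also recurred between groups: array 5 was lowest for Myom2, Myom3 and Mybpc2 in each group, and array 3 highest for Mybpc1. The part of this in the r values was not tested. The within-group SD ran from 0.036 to 0.15 for Myom1, from 0.16 to 0.18 for Ttn and from 0.15 to 0.29 for Neb.

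**Figure D4:**
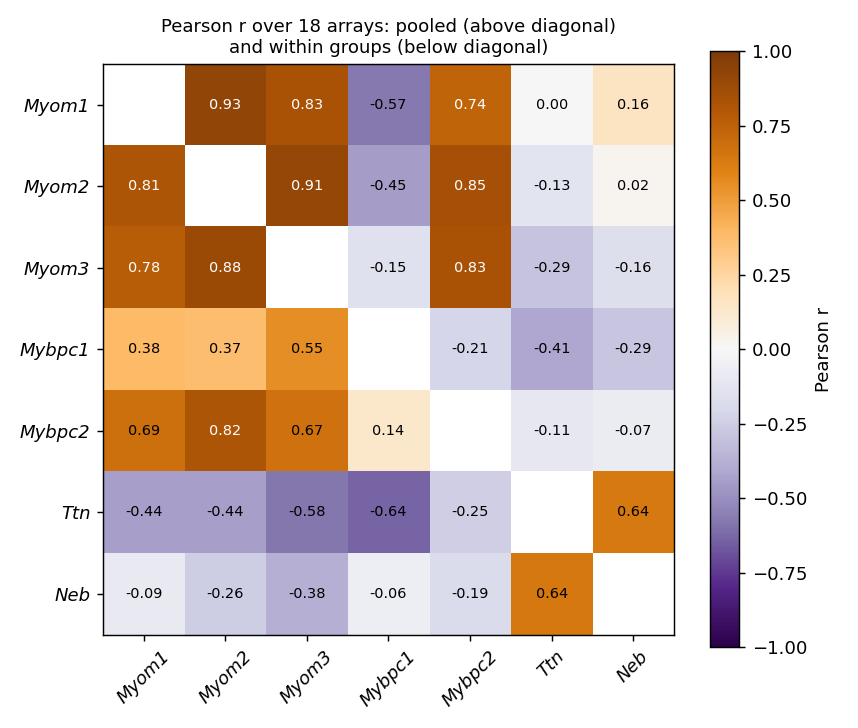
Pearson r between the 7 genes over 18 arrays, by colour and number; above the diagonal r uses the values as they are, below it the deviations from group means. Below the diagonal the myomesins and Mybpc2 form a block of 0.67 to 0.88, and Ttn with Neb gives 0.64.

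The genes whose pattern over the 18 arrays was most like each member, by Pearson r among 12028 other genes above background that are neither predicted genes nor small RNAs, differed between members. For Myom1 they were Tmem184c (r = 0.98), Ppp1r14c (0.98) and Plpp1 (0.98), for Myom2 Klhl30 (0.96), Spire2 (0.96) and Cdc42ep3 (0.95), and for Myom3 Fbxw7 (0.96), Nudt2 (0.96) and P2ry2 (0.95). For Mybpc1 they were Atg12 (0.96), Tfrc (0.95) and Fbln2 (0.94), and for Mybpc2 Mttp (0.93), Dysf (0.92) and Lgr6 (0.91). Ttn was most like Luc7l3 (0.88), Shprh (0.86) and Cep350 (0.86), and Neb most like Resf1 (0.95), Pcm1 (0.94) and Sytl5 (0.93). With group means removed these r values were 0.77 to 0.82 for Myom1, 0.85 to 0.89 for Myom2, 0.91 to 0.93 for Myom3, 0.77 to 0.87 for Mybpc1, 0.85 to 0.91 for Mybpc2, 0.87 to 0.91 for Ttn and 0.95 to 0.97 for Neb.

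Partner genes were listed in 7 sets with 63 genes, of which 61 were measured. Their products bind, load or cap the members or splice their transcripts, or are paralogs, relatives or chaperones of the thick filament. The lists were chosen with earlier results of these data known, so the shares below describe them and do not test them. With Nup210 shRNA 19 of the 61 fell and 2 rose, which is 34.4% called where 8.16% of all genes were called in either direction. With Mef2c shRNA 15 fell and 1 rose, or 26.2% beside 10.8%. Without Nup210 shRNA arrays 2, 4 and 5 the first count was 7 falls and no rise, beside 2.54% of all genes called. Without control arrays 4 and 6 there were 14 falls and 1 rise with Nup210 shRNA, beside 4.97% of all genes, and 10 and 1 with Mef2c shRNA, beside 6.4%. These shares are over all 22180 genes, of which 13017 were above background, while 57 of the 61 partner genes were, so they are not like for like. With genes below background left out, 25 partner genes and 2362 of 13017 genes were called with Nup210 shRNA. With Mef2c shRNA the counts were 19 and 3018. The list counts below are to be read beside these shares. The fits without those arrays were added with results known and have smaller groups. Calls lost in them do not show that a change is absent.

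Of 12 measured partners of the M-line and the titin kinase region, 6 fell and 1 rose with Nup210 shRNA, with a median log2 difference of -0.22 over the list. Ckm, the muscle creatine kinase that docks at the M-line, fell to 76.3% of control (log2 difference -0.39 ± 0.055 SE, adjusted p = 0.000167). Trim63 and Trim55, the ubiquitin ligases MuRF1 and MuRF2 that bind titin near the M-line, fell by 0.29 (adjusted p = 0.00111) and 0.21 (adjusted p = 0.00131). When Nup210 shRNA arrays 2, 4 and 5 were dropped, the list had 2 falls, Ckm and Trim55, and Trim63 was just short (adjusted p = 0.0540). With Mef2c shRNA 1 of the 12 fell and 1 rose. Obsl1, an obscurin-like protein that links myomesin and titin, fell by 0.38 (adjusted p = 0.00191), and Trim63 rose by 0.28 (adjusted p = 0.000845). Trim63 was thus lower than control with one shRNA and higher with the other, and differed between them by -0.57 (adjusted p = 3.53e-07).

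Of 11 partners of titin at the Z-disc and in the I-band, 4 fell with Nup210 shRNA and 6 with Mef2c shRNA, with none rising. Capn3, the calpain that titin anchors, fell by 0.60 (adjusted p = 0.000454) and 0.51 (adjusted p = 0.00130), and Ankrd1, an ankyrin repeat protein of the titin N2A region, by 0.32 (adjusted p = 0.00295) and 0.31 (adjusted p = 0.00283). Actn2, the Z-disc alpha-actinin, fell by 0.67 with Mef2c shRNA (adjusted p = 4.18e-06), and Ankrd2 by 0.51 (adjusted p = 4.16e-05). The other falls, named after their values were seen, were Ankrd23 and Cryab with Nup210 shRNA and Tcap and Fhl1 with Mef2c shRNA. Leaving out Nup210 shRNA arrays 2, 4 and 5 kept 1 of the 4, Capn3, with Ankrd1 at an adjusted p of 0.124, and leaving out control arrays 4 and 6 kept 4 of the 6.

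Of 13 nebulin relatives and thin filament partners 3 fell with each shRNA, or 23.1% called. Over all genes 8.16% were called with Nup210 shRNA and 10.8% with Mef2c shRNA. With genes below background left out, 2362 and 3018 of 13017 were, so these counts do not single out this list. Tmod1, which caps the pointed end of the thin filament, fell by 0.58 with Nup210 shRNA (adjusted p = 3.17e-06). Xirp1 fell by 0.21 with Nup210 shRNA (adjusted p = 0.0483) and by 0.30 with Mef2c shRNA (adjusted p = 0.00369). The first of these calls was lost with array weights, with quantile normalization again and with every probe set tested. It was also lost on leaving out any of 16 of the 18 single arrays, Mef2c shRNA arrays 5 and 6 being the exceptions. Lmod3, named after its value was seen, fell with Nup210 shRNA (adjusted p = 0.0433), a call that ended on leaving out any 1 of 13 arrays, namely Nup210 shRNA 1 to 5, Mef2c shRNA 1, 2 and 4 and control 1, 2, 3, 4 and 6. Cfl2, the muscle cofilin, fell by 0.22 with Mef2c shRNA (adjusted p = 0.00122) and Nrap, a nebulin-related anchoring protein, by 0.20 (adjusted p = 0.0195). Without Nup210 shRNA arrays 2, 4 and 5 only Tmod1 of the first 3 was called, and without control arrays 4 and 6 the counts were 1 and 2.

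Among 6 measured relatives of the myosin-binding proteins with immunoglobulin domains, Igfn1, an immunoglobulin-like protein of muscle, rose by 0.41 (adjusted p = 0.0230) and Mypn fell by 0.32 (adjusted p = 0.0457) with Nup210 shRNA, and none was called with Mef2c shRNA. Neither call held without Nup210 shRNA arrays 2, 4 and 5 (adjusted p = 0.310 and 0.435). Dropping any 1 of control arrays 3 and 5 and Nup210 shRNA arrays 2 and 5 also ended the call of Igfn1. The Mypn call was lost with array weights and without control arrays 4 and 6 (adjusted p = 0.127). It was also lost without any 1 of Nup210 shRNA arrays 2 to 5, Mef2c shRNA array 4 and control arrays 1, 2, 3 and 6. Of 7 myosin heavy chains, the slow form Myh7 fell by 0.52 (adjusted p = 6.04e-06) with Nup210 shRNA and 0.50 (adjusted p = 4.89e-06) with Mef2c shRNA. The embryonic form Myh3 fell by 0.20 (adjusted p = 0.00143) and 0.39 (adjusted p = 1.92e-06), and Myh7b fell with Mef2c shRNA (adjusted p = 0.0240). The Myh7b call was lost without control arrays 4 and 6 (adjusted p = 0.0649) and without any 1 of Mef2c shRNA arrays 1, 5 and 6 and control arrays 2 and 3.

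Of 4 chaperones of thick filament assembly, Smyd1, a muscle methyltransferase, fell by 0.33 (adjusted p = 0.000101) and 0.24 (adjusted p = 0.00107) and Unc45b, the myosin chaperone, by 0.35 (adjusted p = 0.00217) and 0.24 (adjusted p = 0.0252). The Unc45b call with Nup210 shRNA was lost when Nup210 shRNA arrays 2, 4 and 5 were dropped (adjusted p = 0.0713). Its call with Mef2c shRNA was lost when control arrays 4 and 6 were dropped (adjusted p = 0.0647), or any 1 of Mef2c shRNA arrays 2, 4 and 5 and control arrays 1 and 3. Of 8 splicing factors that act on sarcomere transcripts Rbfox1 fell by 0.22 with Nup210 shRNA (adjusted p = 0.0267), and none was called with Mef2c shRNA. The Rbfox1 call was lost when Nup210 shRNA arrays 2, 4 and 5 (adjusted p = 0.283) or control arrays 4 and 6 (adjusted p = 0.154) were dropped. It was also lost with only the compared groups fitted, and without any 1 of Nup210 shRNA arrays 2 and 5 and control arrays 1, 3, 4 and 6. Each member is read by 1 probe set, so splice forms of titin and nebulin cannot be told apart.

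**Figure D5:**
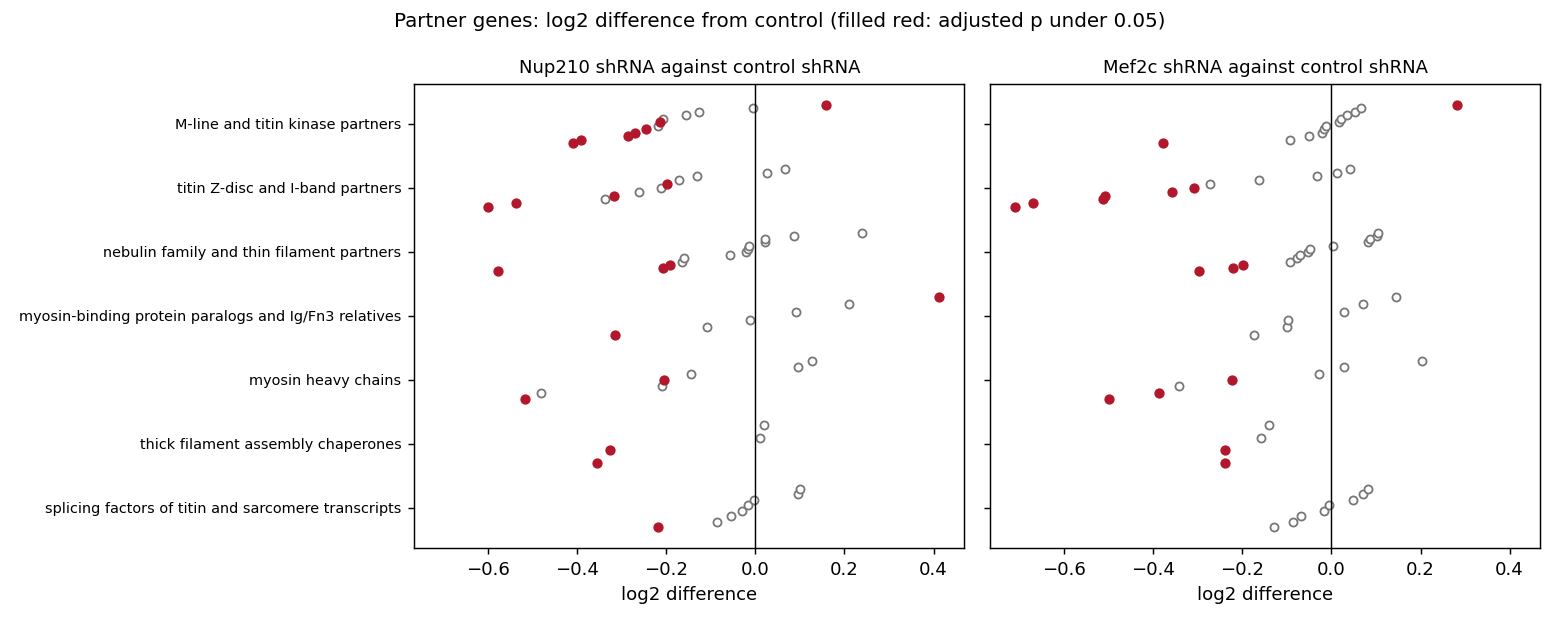
Log2 difference from control (x axis) of 61 partner genes in 7 lists (y axis), for Nup210 shRNA on the left and Mef2c shRNA on the right; each point is a gene, and filled red points have an adjusted p under 0.05. Falls outnumber rises in both panels, 19 to 2 and 15 to 1.

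Marker lists of myotubes and of other cell states moved in some of the same arrays. Myh3 and Ckm are also among the partner genes above, and Des is in both the myotube and the smooth muscle list. Over all genes 8.16% were called with Nup210 shRNA and 10.8% with Mef2c shRNA. Of 8 myotube markers 3 fell with Nup210 shRNA (Myh3, Ckm and Mymk) and 2 with Mef2c shRNA (Myh3 and Acta1). Of 8 myoblast or reserve cell markers, 2 rose with Nup210 shRNA (Myf5 and Id3), while with Mef2c shRNA Myf5 rose and Heyl fell, and the mean level of the list was 7.66 to 7.88 in controls, 7.80 to 8.06 with Nup210 shRNA and 7.74 to 7.82 with Mef2c shRNA. Of 5 smooth muscle markers 3 fell with Nup210 shRNA and 2 with Mef2c shRNA, with mean levels of 8.81 to 9.10, 8.45 to 8.85 and 8.55 to 8.76. No cycling marker was called with Nup210 shRNA. The part of these markers in the member differences was not tested.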

How the data were processed

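RNA of 18 samples was read on one-colour arrays, 6 per shRNA group by title. The deposited values are log2 expression; the authors used RMA and Partek, per the submitters' processing notes, with no version or build stated in the sources at hand. RMA quantile-normalizes arrays and compresses differences of dim genes. Of 41345 probe sets, 23521 had 1 gene symbol in the platform annotation, 1814 several and 16010 none. The brightest probe set by mean over 18 arrays stood for each of 22180 genes.

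Limma 3.58.1 (R 4.3.3) fitted 1 mean per group over all 18 arrays, with 15 residual degrees of freedom and Benjamini-Hochberg adjustment over all 22180 genes. The procedure was tested on simulated data with 200 of 22180 genes changed. It recovered 32.8% of changes of 0.25 log2, 85.1% of those of 0.5 and 98.5% of those of 1. Of its calls 6.49% were false. Most changes of 0.25 were thus missed there. The members and lists were chosen with earlier results of these data known. Named beyond the members were the targeted genes, up to 4 called genes per partner list by smallest adjusted p, and the 3 genes most like each member. Alternatives were a replicate block, only the groups compared, quantile normalization again, centring on medians, no dim genes, other uses of probe sets, a trended robust prior, array weights and fewer arrays. Promoter windows, of GRCm38.p6, served for sequence only. The labels used here give no batch. The replicate number was fitted as a block only as an alternative, and no other grouping of arrays was tested.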

Additional observations from a re-analysis of the deposited data

Results flagged for a closer look

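Within the Mef2c shRNA group, array 5 stood apart from the other 5 for 2 members. Myom1 was 9.36 there against 9.42 to 9.46 on the others, and Myom2 was 10.58 against 10.74 to 10.81. In each case the gap to the nearest array exceeded Dixon's 95% critical value for 6 samples; chance flags about 1 in 20 groups, and 7 genes in 3 groups were looked at. Without this array the Myom2 difference between Mef2c shRNA and control was 0.075 (adjusted p = 0.436) and that of Myom1 0.11 (adjusted p = 0.277), so neither was called.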

How the results depend on the processing

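Of 29 alternative fits, each kept the calls of Myom1 with Nup210 shRNA (log2 difference -0.54 to -0.38) and of Mybpc1 with Mef2c shRNA (-0.59 to -0.49). With Nup210 shRNA against control the members called numbered 3 to 4 when each array was left out in turn, against 4. They numbered 1 without Nup210 shRNA arrays 2, 4 and 5 and 1 without control arrays 4 and 6, where partner genes numbered 7 and 15 against 21. Without these Nup210 shRNA arrays, members called between the shRNA groups numbered 2 in place of 4, and 3 to 5 when single arrays were left out. All genes called numbered 563 and 1103 without those arrays in place of 1809, and 1420 in place of 2386 for Mef2c shRNA without control arrays 4 and 6; the smaller groups are part of that construction. The Mybpc2 fall with Nup210 shRNA also missed the threshold with only the 2 groups fitted (adjusted p = 0.0545) and with array weights (adjusted p = 0.0756), and Myom3 between the shRNA groups with only those groups fitted (adjusted p = 0.0730). Sign changes were seen for Ttn with either shRNA and for Neb with Nup210 shRNA, none of them called. Without control arrays 4 and 6, Ttn was 0.035 and Neb 0.040 with Nup210 shRNA. Control array 4 was the highest control for both genes (11.65 and 11.85). Leaving out both arrays lowered the control means, so a shift in this direction was fixed by that choice. Without Nup210 shRNA arrays 2, 4 and 5 Ttn was -0.15 (adjusted p = 0.592). Leaving out single arrays, Ttn ran from -0.079 to 0.024 and Neb from -0.077 to 0.041 with Nup210 shRNA, and Ttn from -0.017 to 0.080 with Mef2c shRNA. With median centring, 395 genes rose and 1177 fell with Nup210 shRNA in place of 676 and 1133, and the 4 members called were the same.

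With the replicate block, members called numbered 4, 1 and 5, and Mybpc2 passed between the shRNA groups (adjusted p = 0.00734), as it did with dim genes left out (adjusted p = 0.0482); partner genes numbered 30, 20 and 34 against 21, 16 and 26. Same-numbered arrays correlated in their deviations at -0.20 to 0.48, over 0.1 in 12 of 18 pairs, and 12 of 18 correlated best with their own number, a hint from the data that some numbers are shared. Because 6 pairs were at or under 0.1 and the labels tie no number to a culture or day, the numbers were not taken to pair the samples. The number of arrays and, for Mybpc2, a signal near background limit the precision.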

Other observations

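Array 5 was the lowest of its group for Myom2, Myom3 and Mybpc2 in each of the 3 shRNA groups. For Myom3 it read 8.77 in controls, 8.28 with Nup210 shRNA and 8.55 with Mef2c shRNA, and for Mybpc2 5.76, 5.30 and 5.54. Mef2c itself was also lowest on array 5 of each group, at 10.10, 10.08 and 7.51. Ttn and Neb did not share this order: on array 5 of the Nup210 shRNA group both were at their highest, 11.56 and 11.81, where all 3 myomesins were at their lowest.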
